A study of Mus musculus with 30 samples.

Results

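The genes described here are 10 inflammatory cytokines and colony-stimulating factors: Il1b, Tnf, Il6, Lif, Osm, Il11, Il33, Csf1, Csf2 and Csf3. They were found by symbol alone, as the rows of a count table of mouse hearts whose Ensembl identifier carries one of these symbols in the GENCODE annotation, and make up 10 of 55487 identifiers. Poly(A) RNA was sequenced from 30 hearts, taken 8 weeks after surgery. The operation was either a sham or TAC (transverse aortic constriction), in which a narrowed aortic arch raises the pressure the left ventricle has to work against. In the floxed cohort, FF_sham and FF_TAC are 4 hearts each of the genotype labelled CPT1a floxed, and KO_sham and KO_TAC are 4 hearts each labelled as a cardiac specific CPT1a knockout. In the AAV9 cohort every mouse was C57Bl/6. PBS_sham and PBS_TAC are 3 hearts each from mice given PBS, and AAV_sham and AAV_TAC are 4 hearts each from mice given AAV9.Cpt1a, an adeno-associated virus vector that carries Cpt1a and is written AAV9.cTNTN.Cpt1a in the design text. Cpt1a encodes an enzyme of the outer mitochondrial membrane that commits long-chain fatty acids to oxidation. The design text speaks of a knockdown where the genotype label says knockout. The Cre driver, the ages and which of the listed clip sizes each mouse received are not given in the sources used here. The series asks what a gain or a loss of Cpt1a does to the heart under pressure overload.

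Interleukin-1β and tumour necrosis factor are alarm cytokines made by macrophages and other cells after injury, and they switch on NF-kappaB in the cells that bind them. Interleukin-6, leukaemia inhibitory factor, oncostatin M and interleukin-11 form a family that signals through the shared receptor subunit gp130 to the transcription factor STAT3. In the heart this family is known for acting on cardiomyocytes and fibroblasts. Interleukin-33 is a nuclear alarmin of stromal cells that is released on damage and binds the receptor ST2. The colony-stimulating factors M-CSF (Csf1), GM-CSF (Csf2) and G-CSF (Csf3) support the growth and survival of macrophages, of granulocytes together with macrophages, and of neutrophils. Messenger RNAs of this kind are short-lived, and their genes are held at a low level in resting tissue.

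In the GENCODE annotation on GRCm38, Il1b (ENSMUSG00000027398) lies at chr2:129364570-129371139 on the minus strand and Tnf (ENSMUSG00000024401) at chr17:35199381-35202007 on the minus strand. Il6 (ENSMUSG00000025746) lies at chr5:30013114-30019981 on the plus strand, and Csf1 (ENSMUSG00000014599) at chr3:107741048-107760469 on the minus strand. Il33 (ENSMUSG00000024810) lies at chr19:29925114-29960718 on the plus strand. Counts are per gene over its exons, and all 10 genes are protein-coding. RefSeq start windows on GRCm38.p6 were matched for 8 of the 10 genes. The 120 bases before the start are printed for 4 genes that were high together in KO_TAC and in the libraries labelled FF_TAC 2 and FF_TAC 3. They are also printed for Il33, which varied apart from these genes. Each runs 5′ to 3′ on the strand of its gene, and capitals mark a match to one of the motifs searched.
Il1b, chr2:129371140-129371259, minus strand: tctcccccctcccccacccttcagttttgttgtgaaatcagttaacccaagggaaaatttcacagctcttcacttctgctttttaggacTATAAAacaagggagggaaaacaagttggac
Tnf, chr17:35202008-35202127, minus strand: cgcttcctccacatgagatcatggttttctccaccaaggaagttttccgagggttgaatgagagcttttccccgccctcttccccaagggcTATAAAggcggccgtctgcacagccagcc
Il6, chr5:30012994-30013113, plus strand: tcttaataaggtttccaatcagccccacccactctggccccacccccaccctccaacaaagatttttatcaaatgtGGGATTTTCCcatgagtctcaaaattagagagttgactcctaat
Csf1, chr3:107760470-107760589, minus strand: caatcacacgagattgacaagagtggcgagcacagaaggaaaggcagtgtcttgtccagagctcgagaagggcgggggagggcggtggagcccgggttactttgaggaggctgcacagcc
Il33, chr19:29924993-29925112, plus strand: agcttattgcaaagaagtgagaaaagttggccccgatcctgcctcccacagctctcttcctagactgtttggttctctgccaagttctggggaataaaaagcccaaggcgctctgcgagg

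The search covered 250 bases before each start on both strands. The motifs were AP-1 (TGANTCA, found in 6.75% of 32851 RefSeq windows), the cyclic AMP response element (TGACGNCA, 2.75%), C/EBP (TTGCNNAA, 9.56%), STAT (TTCNNNGAA, 7.02%), the TATA box (TATAAA, 12.4%) and NF-kappaB (by name, 7.25%). The Il6 window held an NF-kappaB match at positions -44 to -35 from the start, a C/EBP match at -128 to -121 and an AP-1 match at -249 to -243. The Csf1 window held an NF-kappaB match at -154 to -145. Il1b and Tnf held the TATA letters at -31 to -26 and at -29 to -24. The Lif window held an AP-1 match at -228 to -222 and an NF-kappaB match at -178 to -169. A RefSeq start of Il11, at chr7:4778141, held an AP-1 match at -98 to -92. The Csf2 window held a C/EBP match at -145 to -138. For the Il33 start printed above, the TATA letters lay at -203 to -198, outside the printed bases. Another RefSeq start of Il33, at chr19:29945790, held a C/EBP match at -85 to -78 and the TATA letters at -29 to -24. None of the 8 genes had a STAT or cyclic AMP response element match in these windows. A match is a string of letters, not a measured binding site.

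Total counts ran from 14839758 to 22070373 per library. In 7 floxed-cohort libraries, haemoglobin transcripts summed to 1.40 to 51.1 CPM (counts scaled to the library total), against at least 293.9 CPM in the other 23. The 7 are the 4 libraries of KO_TAC, the library labelled KO_sham 2, and FF_TAC 2 and FF_TAC 3 as labelled. They are called the haemoglobin-low libraries below, which is a split made from the data and not a group of the study. Cpt1a went against 3 of these labels. The library labelled KO_sham 2 held 46.2 CPM of Cpt1a, inside the FF_sham range of 37.8 to 52.6 CPM, while the other KO_sham libraries held 20.3 to 23.6 CPM. Of the hearts labelled FF_TAC, numbers 2 and 3 held 20.3 and 16.2 CPM, against 33.95 and 48.8 CPM in the other FF_TAC libraries. Every direction below that involves FF_TAC or KO_sham carries this limit. The labels name separate hearts by title alone, so p-values measure the spread between these samples. Markers of ventricular cardiomyocytes were high in all libraries, at 24080 to 72410 CPM in sum over 6 genes.

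Across the floxed cohort, most of the 10 genes were near the floor in resting hearts and high in the haemoglobin-low libraries. CPM values below are scaled by TMM and listed in replicate order. Il1b was at 0.183, 0.708, 0.284 and 0.369 CPM in FF_sham. It was at 0.438 and 0.718 CPM in FF_TAC 1 and 4, and at 101 and 64.6 CPM in the libraries labelled FF_TAC 2 and FF_TAC 3. In KO_sham it was at 1.06, 0.468 and 0.574 CPM in libraries 1, 3 and 4, and at 61.5 CPM in the library labelled KO_sham 2. All 4 KO_TAC libraries were high, at 81.0, 173, 179 and 127 CPM. The 7 haemoglobin-low libraries (61.5 to 179 CPM) thus stood clear of the other 9 floxed-cohort libraries (0.183 to 1.06 CPM) and of the 14 AAV9-cohort libraries (0.529 to 2.01 CPM).

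Tnf separated the libraries in the same way. It was at 0.488 to 1.09 CPM in the other 9 floxed-cohort libraries and at 0.303 to 1.22 CPM in the AAV9 cohort. The highest levels were 137.5 and 133 CPM, in the libraries labelled FF_TAC 2 and FF_TAC 3. KO_TAC stood at 62.7, 112, 114 and 120.5 CPM, and the library labelled KO_sham 2 at 39.8 CPM. For Tnf, therefore, no KO_TAC library exceeded the 2 high FF_TAC libraries.

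Il6 was at 0 counts in all 4 FF_sham libraries, and at 0.345 CPM or less in every library of the AAV9 cohort. In the haemoglobin-low libraries it was at 42.6 and 35.0 CPM (FF_TAC 2 and 3), 41.0 CPM (labelled KO_sham 2) and 108.5, 27.8, 60.3 and 86.7 CPM (KO_TAC 1 to 4). The KO_TAC range spans the other 3 haemoglobin-low values. In the remaining floxed-cohort libraries the highest level was 0.104 CPM, or 2 counts.

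**Figure D1:**
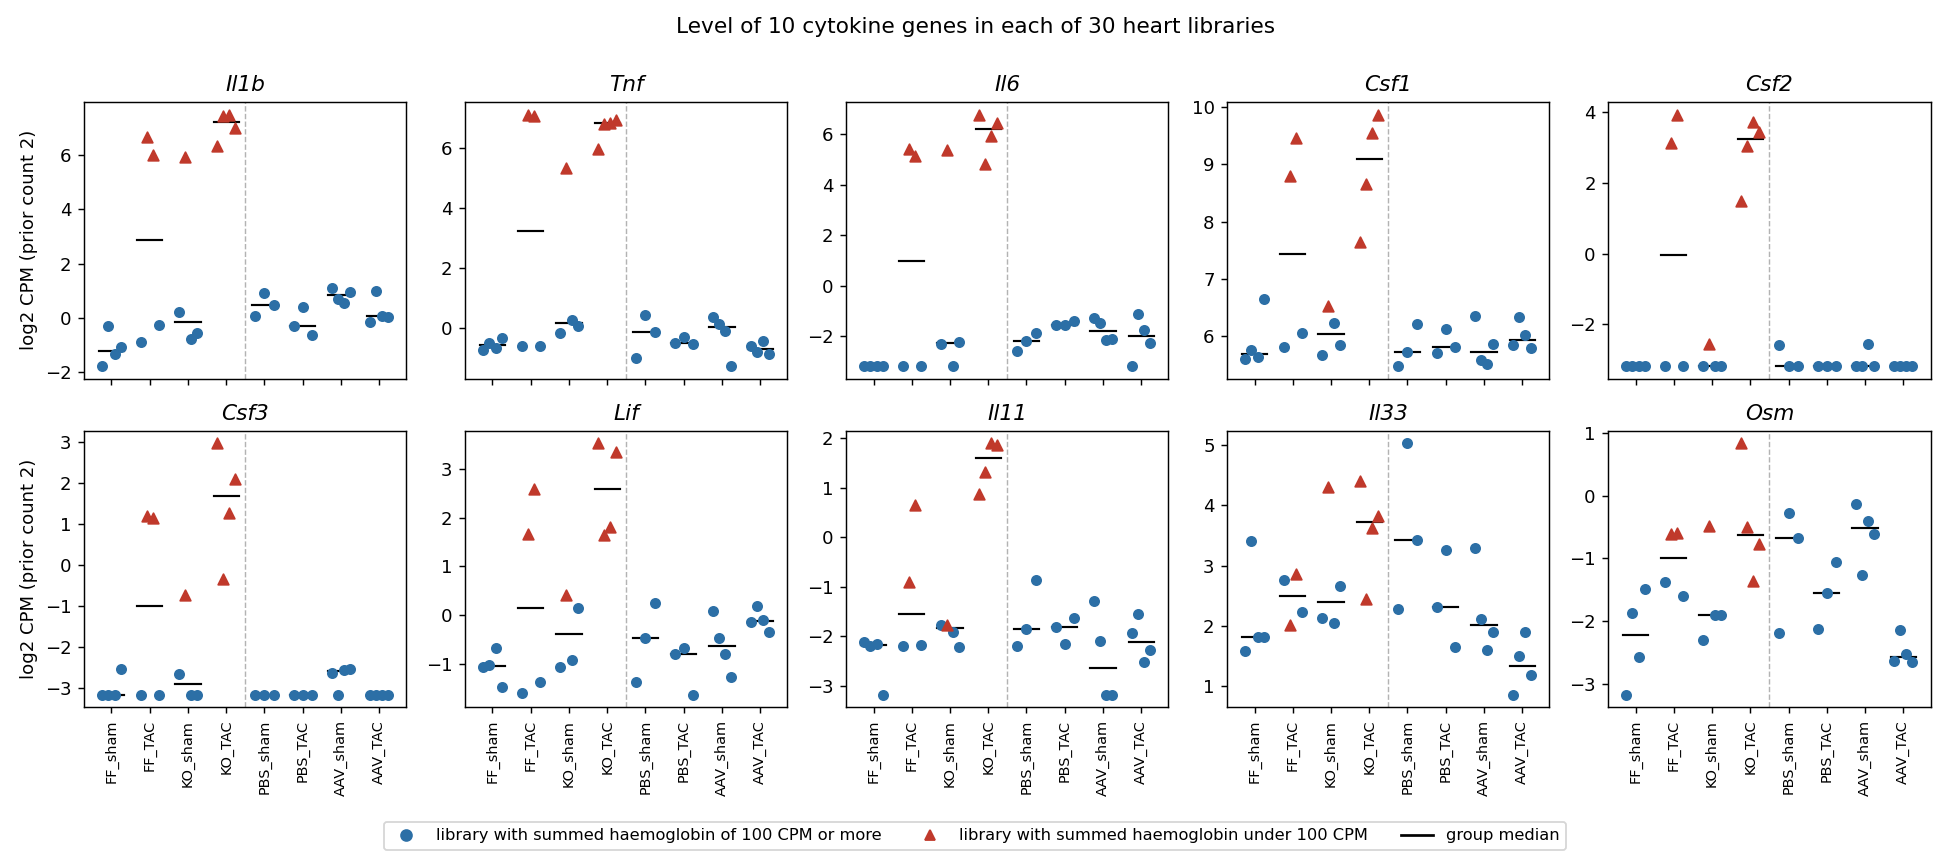
Level of each gene as log2 CPM (prior count 2) on the vertical axis in the 8 groups on the horizontal axis, with 1 point per library and a line at the group median; triangles mark the 7 libraries with summed haemoglobin under 100 CPM and the dashed line parts the cohorts. For Il1b, Tnf and Il6 all 7 triangles sit far above all circles, for Csf1 and Csf2 the triangle of KO_sham lies near the circles, and for Il33 triangles and circles mix.

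The colony-stimulating factors were high in 6 of the 7 haemoglobin-low libraries, and the library labelled KO_sham 2 was the exception for Csf1 and Csf2. Csf1 was at 445 and 704 CPM in FF_TAC 2 and 3 and at 201, 402, 751 and 935 CPM in KO_TAC. The library labelled KO_sham 2 held 92.6 CPM, under the 100.6 CPM of FF_sham 4, and all other floxed-cohort libraries held 48.8 to 75.5 CPM. Csf1 was also well detected at rest, at 44.6 to 81.5 CPM across the AAV9 cohort. Csf2 was at 0 counts in all 9 other floxed-cohort libraries and at 1 count in the library labelled KO_sham 2. It reached 8.61 and 15.2 CPM in FF_TAC 2 and 3 and 2.71, 8.10, 13.1 and 10.7 CPM in KO_TAC. Csf3 was at most 1 count in the 9 other libraries, at 0.486 CPM (8 counts) in the library labelled KO_sham 2, at 2.17 and 2.08 CPM in FF_TAC 2 and 3, and at 7.67, 0.675, 2.28 and 4.16 CPM in KO_TAC.

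In the gp130 family, Lif was at 0.246 to 0.512 CPM in FF_sham and at 0.368, 1.21, 0.416 and 0.992 CPM in KO_sham. It was at 3.07 and 5.88 CPM in FF_TAC 2 and 3, against 0.219 and 0.276 CPM in FF_TAC 1 and 4, and at 11.4, 3.0, 3.39 and 10.1 CPM in KO_TAC. Il11 was the only one of the 10 genes whose 4 KO_TAC levels all lay above every other library of the series. Its levels were 1.72, 2.40, 3.61 and 3.51 CPM in KO_TAC, against 0.422 and 1.47 CPM in FF_TAC 2 and 3 and at most 0.184 CPM in KO_sham, where the library labelled KO_sham 2 stood at 0.182 CPM. Osm was low in every library. It was at 1.67, 0.600, 0.278 and 0.476 CPM in KO_TAC, and at 34 counts in its highest library. It did not pass the count filter in the floxed cohort, and without that filter its log2 fold change of KO_TAC over KO_sham was 1.60 ± 0.68 (SE, adjusted p = 0.159).

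Il33 did not follow the split. It was at 2.87, 10.45, 3.41 and 3.39 CPM in FF_sham, at 6.68, 3.91, 7.17 and 4.58 CPM in FF_TAC, and at 21.0, 5.32, 12.2 and 14.0 CPM in KO_TAC. KO_sham stood at 4.28, 4.0 and 6.21 CPM in libraries 1, 3 and 4 and at 19.7 CPM in the library labelled KO_sham 2. The haemoglobin-low range of 3.91 to 21.0 CPM overlapped the 2.87 to 10.45 CPM of the other floxed-cohort libraries. The highest Il33 level of the series, 32.5 CPM, was in PBS_sham 2.

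The 4 KO_TAC libraries also differed among themselves. KO_TAC 1 was the highest of the 4 for Il6, Lif, Csf3, Il33 and Osm and the lowest for Il1b, Tnf, Csf1, Csf2 and Il11. KO_TAC 2 was the lowest for Il6, Lif, Csf3 and Il33. Across these 4 libraries the genes therefore did not rank alike, although 9 of the 10 were higher there than in FF_sham in every library. The exception was Il33, whose 5.32 CPM in KO_TAC 2 lay under the 10.45 CPM of FF_sham 2.

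**Figure D2:**
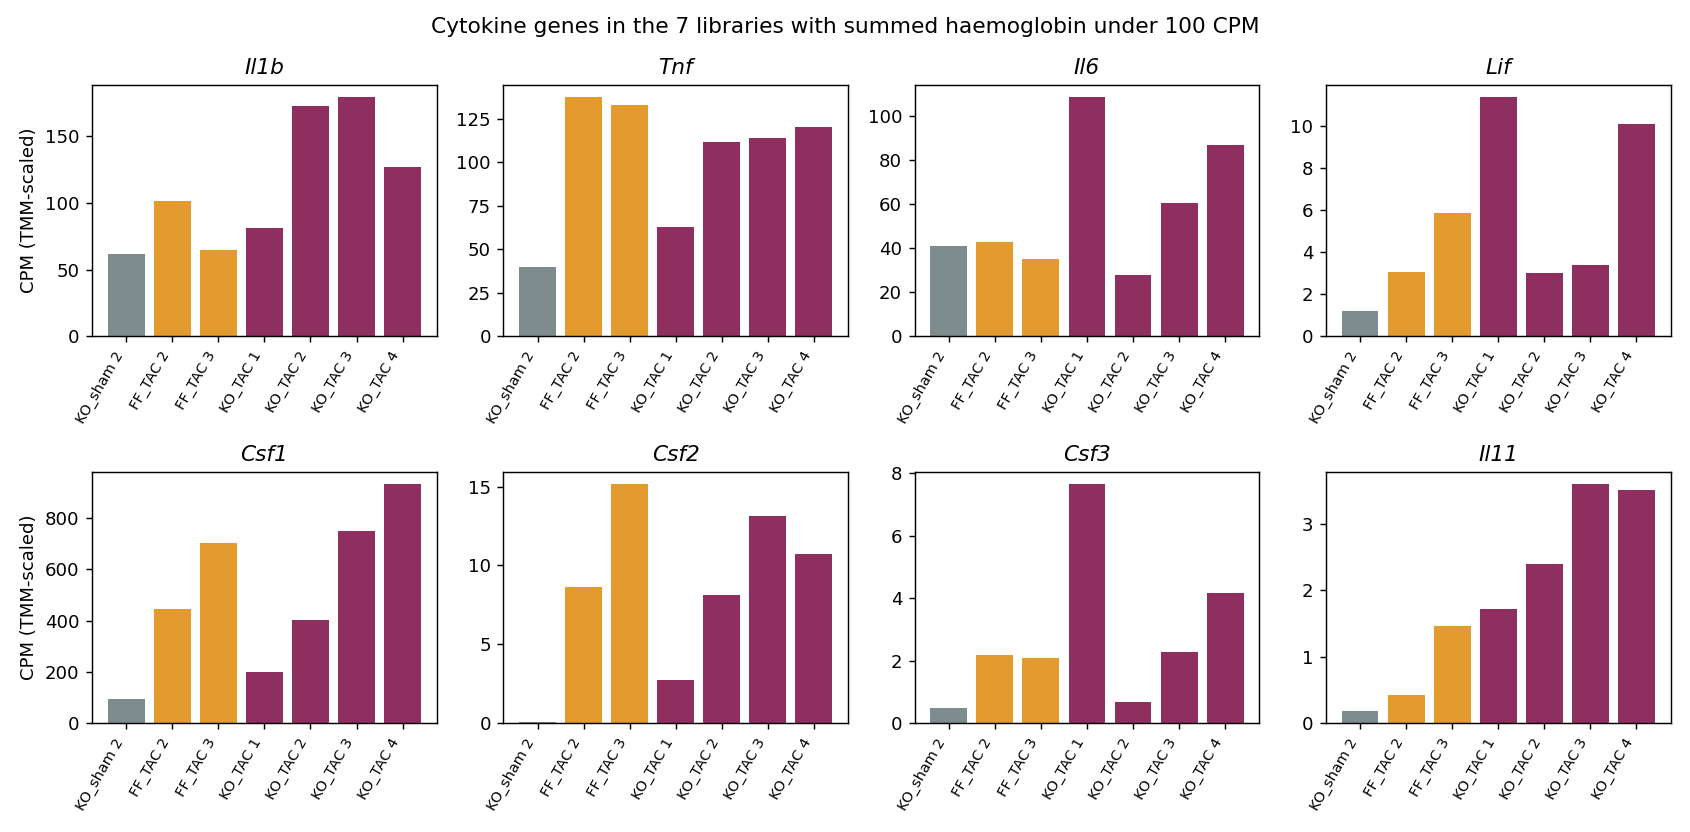
TMM-scaled CPM of 8 genes (vertical axes, from 0) in the 7 libraries with summed haemoglobin under 100 CPM (horizontal axis): grey for the library labelled KO_sham 2, orange for those labelled FF_TAC 2 and 3, purple for KO_TAC 1 to 4. The grey bar is close to 0 for Csf2 and Il11 and is 61.5 CPM for Il1b, the orange bars are the tallest for Tnf, and KO_TAC 1 is the tallest for Il6, Lif and Csf3.

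Per kilobase of exon, which allows levels to be set between genes, Csf1 led in every group. Its median in FF_sham was 9.80 CPM per kb, followed by Il33 at 1.18, Tnf at 0.339 and Il1b at 0.171 CPM per kb. In KO_TAC the order was Csf1 (median 109 CPM per kb), Il1b (78.6), Tnf (68.8), Il6 (30.3), Csf2 (11.8), Il33 (4.55), Csf3 (2.28), Lif (1.55), Il11 (1.42) and Osm (0.237). Neighbours in that order overlapped in range except Il11 and Osm, as in Csf1 (38.1 to 177 CPM per kb) and Il1b (42.5 to 94.0 CPM per kb). Il33 thus moved from the second place at rest to the sixth.

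TAC in floxed controls was the first comparison (FF_TAC against FF_sham). None of the 9 tested genes was called, with a background of 0% of 15596 genes called by edgeR at an adjusted p under 0.05. At an unadjusted p under 0.05 there were 8 of 9 members and 1733 of all genes, and DESeq2 called 4 members (Il1b, Il6, Tnf and Csf2) among 168 of 15596 genes. Il6, Csf2, Csf3, Il11 and Lif held at most 0, 0, 1, 2 and 9 counts in an FF_sham library. They passed the count filter only through libraries where they were high, with little room for a lower value. The member counts and the member median set beside all genes are therefore descriptions only. Apart from Il33, the high values came from the libraries labelled FF_TAC 2 and FF_TAC 3 alone, and the groups overlapped for all 9 genes. Group means were 41.8 ± 49.9 CPM (SD, n = 4) against 0.386 ± 0.228 CPM for Il1b (log2 fold change 6.71 ± 1.96 SE, adjusted p = 0.328), and the SD of FF_TAC exceeded its mean. For Tnf the log2 fold change was 6.88 ± 1.84 (adjusted p = 0.328), for Csf1 2.33 ± 0.69 (adjusted p = 0.328), and for Il11 2.48 ± 0.82 (adjusted p = 0.349). The member median was 5.61 against -0.01 over all tested genes. Il6 and Csf2, at 0 counts in FF_sham, lay above that median at their bounds also, at least 422-fold and at least 129-fold higher over 3 counts in the group.

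With the haemoglobin-high libraries only, 2 in FF_TAC and 4 in FF_sham, no member was at an unadjusted p under 0.05. The log2 fold change was 0.55 ± 0.56 for Il1b, -0.05 ± 0.33 for Tnf, -0.04 ± 0.28 for Csf1, -0.60 ± 0.58 for Lif and -1.65 ± 1.90 for Csf3. Il6 and Csf2 were at 0 counts in all 6 of these libraries.

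In the knockouts, the colony-stimulating factors rose with TAC together with Lif and Il11 (KO_TAC against KO_sham). Of 9 tested members 5 rose and none fell, against 14.3% of all tested genes called higher. Csf2, Csf3 and Il11 held at most 1, 8 and 4 counts in a KO_sham library. They passed the count filter only through libraries where they were high, with little room for a lower call. The count of members set beside that share is therefore a description only. Csf1 rose from a mean of 69.2 ± 18.7 to 572 ± 332 CPM (mean ± SD over 4 libraries per group), and the log2 fold change was 3.05 ± 0.71 with an adjusted p of 0.00855. Il11 rose from 0.157 ± 0.037 to 2.81 ± 0.91 CPM, a log2 fold change of 4.11 ± 0.68 (adjusted p = 0.00184). Lif rose by a log2 fold change of 3.24 ± 0.82 (adjusted p = 0.0129) and Csf3 by 4.86 ± 1.28 (adjusted p = 0.015). Csf2 rose from 1 count to 579 counts over the 4 libraries (adjusted p = 0.0114), a ratio of 648 with a 95% counting interval of 116 to 25620. The member median was 3.24 against 0.02 over all genes.

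Il1b and Tnf did not pass the test, although no KO_TAC library overlapped KO_sham. Their log2 fold changes were 3.15 ± 1.46 (adjusted p = 0.118) and 3.28 ± 1.42 (adjusted p = 0.0967). In all, 7 of 9 members were higher with no overlap, against 11.1% of all tested genes. Csf2, Csf3 and Il11 are among the 7 and carry the limit of the count filter given above. Il6 had a log2 fold change of 2.81 ± 1.72 (adjusted p = 0.238) and Il33 one of 0.64 ± 0.54 (adjusted p = 0.388). These values rested on the library labelled KO_sham 2. Without it all 9 members were called, among 3169 of 15596 genes, with log2 fold changes of 7.61 ± 1.57 for Il1b, 6.76 ± 1.59 for Tnf, 9.91 ± 2.32 for Il6, 1.45 ± 0.48 for Il33 and 7.31 ± 1.72 for Csf3.

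KO_TAC has no haemoglobin-high library, so TAC in the knockouts and the haemoglobin state cannot be told apart from this comparison. With a term for that state in the fit, 0 of 9 members were called (Il11, Csf2, Csf3 and Il1b, or 4, were at an unadjusted p under 0.05), and 273 of 15596 genes were called. The log2 fold changes were 2.69 ± 0.78 for Il11 (adjusted p = 0.0875), 6.48 ± 1.32 for Csf2 (adjusted p = 0.0579), 2.61 ± 1.06 for Csf3 (adjusted p = 0.199), 1.21 ± 0.73 for Csf1 (adjusted p = 0.366) and 1.22 ± 0.85 for Lif (adjusted p = 0.436). Among haemoglobin-low libraries only, 4 KO_TAC libraries stood against the library labelled KO_sham 2, which was assumed to vary like the others. Csf2 was then at 6.99 ± 1.44, Il11 at 3.90 ± 0.995, Csf3 at 2.92 ± 1.29, Csf1 at 2.63 ± 0.88 and Lif at 2.52 ± 0.975. Tnf was at 1.36 ± 0.39, Il1b at 1.19 ± 0.50, Il6 at 0.79 ± 0.63 and Il33 at -0.58 ± 0.60. Only 2 of all genes were called in that fit.

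**Figure D3:**
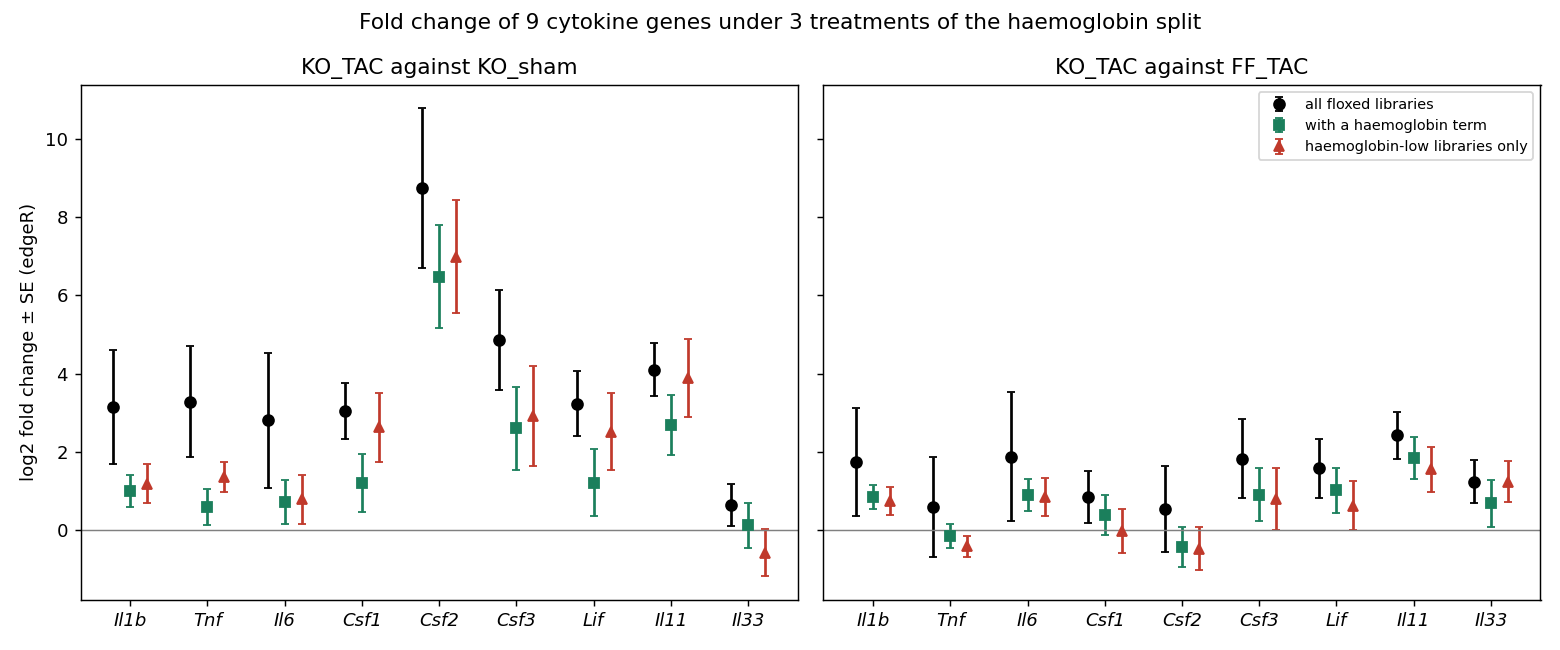
Log2 fold change of 9 genes (vertical axis; points with bars of ± 1 SE, edgeR) for KO_TAC against KO_sham on the left and KO_TAC against FF_TAC on the right, from the fit of all floxed libraries, with a haemoglobin term, and among haemoglobin-low libraries only. On the left Csf2 is highest in all 3 fits, at 6.99 in the last, and Il11 goes from 4.11 to 3.90, while Il1b goes from 3.15 to 1.19; on the right Il11 and Il33 keep their sign at 1.56 and 1.24 and Tnf and Csf2 turn negative.

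The genotypes under TAC were compared next (KO_TAC against FF_TAC). Il11 was the 1 member of 9 that rose, a share near the 7.53% of all tested genes called higher. It held at most 24 counts in an FF_TAC library and passed the count filter only through libraries where it was high, mainly KO_TAC. Its call and its overlap, set beside shares of all genes, are therefore descriptions only. Il11 averaged 0.528 ± 0.645 CPM in FF_TAC against 2.81 ± 0.91 CPM in KO_TAC (SD over 4 libraries per group). The log2 fold change was 2.42 ± 0.60 (adjusted p = 0.015). The libraries did not overlap, as in 6.76% of all tested genes in that direction. Every other member overlapped between the groups. Il33 had a log2 fold change of 1.24 ± 0.55 (adjusted p = 0.138), Lif of 1.58 ± 0.75 (adjusted p = 0.164), Csf1 of 0.85 ± 0.66 (adjusted p = 0.397) and Tnf of 0.59 ± 1.29 (adjusted p = 0.783). The member median was 1.58 against 0.04 over all genes. Without FF_TAC 3, a library whose Cpt1a went against its label, Lif was called as well, at 2.57 ± 0.78 (adjusted p = 0.0426, among 2041 genes in all), and Il11 was at 3.70 ± 0.52. FF_TAC 3 is also haemoglobin-low, as all KO_TAC libraries are and FF_TAC 1 and 4 are not. Among haemoglobin-low libraries only, Lif was at 0.63 ± 0.63 by edgeR (adjusted p = 0.799). With the haemoglobin term it was at 1.015 ± 0.575 (adjusted p = 0.304).

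Among haemoglobin-low libraries only (4 KO_TAC against the libraries labelled FF_TAC 2 and FF_TAC 3), none of the 9 members and none of 15596 genes was called. At an unadjusted p under 0.05 there were 1574 genes, Il11 and Il33 among them. Il11 was at 1.56 ± 0.58 (adjusted p = 0.432) and Il33 at 1.24 ± 0.52 (adjusted p = 0.488). Csf1 was at -0.02 ± 0.56, Csf2 at -0.47 ± 0.55 and Tnf at -0.42 ± 0.27, and Il1b at 0.74 ± 0.36. With the haemoglobin term, Il11 was at 1.86 ± 0.54 (adjusted p = 0.0501). At matched haemoglobin state the differences of Csf1 and Csf2 were therefore smaller than their SE, and that of Tnf had an adjusted p of 0.67.

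The knockout without TAC and the interaction gave no edgeR call of a member. In KO_sham against FF_sham edgeR called 0 of 9 members and 0% of genes. Il1b, Il6 and Tnf were at an unadjusted p under 0.05, as were 814 of all genes, and DESeq2 called Il6 among 3 genes in all. Without the library labelled KO_sham 2 their log2 fold changes were 0.84 ± 1.85, 3.39 ± 7.29 and 0.71 ± 1.77. Tnf was the 1 member whose libraries did not overlap, against 3.23% of genes in that direction. Among haemoglobin-high libraries Tnf stood at 0.783, 1.09 and 0.939 CPM in KO_sham against 0.488 to 0.677 CPM in FF_sham, a log2 fold change of 0.71 ± 0.27 (adjusted p = 0.296). The member median was 1.76 over 8 members, with Csf2 left out because both groups were at or under 3 counts. The limit of the count filter given for FF_TAC against FF_sham holds here as well. The interaction (the TAC effect in knockouts minus that in floxed controls) called 0 of 9 members against 0.0449% of genes, with 0 members at an unadjusted p under 0.05, and DESeq2 called Il6 among 377 genes in all. By edgeR the log2 value was 1.63 ± 1.22 for Il11 and -3.60 ± 2.20 for Tnf.

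The other genes of these pathways were read from lists. Among 16 tested cytokine receptors and soluble antagonists, 7 rose and 2 fell in KO_TAC against KO_sham (background 14.3% in the rising and 11.5% in the falling direction). The list median was 0.38 against 0.02. Il1rn, the natural antagonist of interleukin-1, rose by 3.18 ± 0.65 (adjusted p = 0.00479), and Tnfrsf1b, the second TNF receptor, by 1.88 ± 0.31 (adjusted p = 0.00175). Il1rl1, which encodes the interleukin-33 receptor ST2, fell by 1.61 on the log2 scale (adjusted p = 0.0262). That call was lost without KO_sham 1, KO_sham 4, KO_TAC 2 or KO_TAC 3, where the adjusted p was 0.0562 to 0.0792 and 1 gene of the list remained called lower. Against FF_TAC, 8 of the 16 rose and none fell (7.53% and 6.8% of genes), and 5 without FF_TAC 4 or KO_TAC 3. Il1rn rose by 3.51 ± 0.67, and Csf2rb2 and Csf2rb, subunits of the receptors for GM-CSF and its relatives, rose by 2.11 ± 0.33 and 1.46 ± 0.32. Csf2rb and Csf2rb2 are close copies, so the split of reads between them is uncertain.

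Among 15 tested related cytokines, 4 rose and 2 fell in KO_TAC against KO_sham (background 14.3% and 11.5%), with a list median of 0.52. The share that fell was near the background. Il10, an anti-inflammatory cytokine, rose by 4.01 ± 0.95 (adjusted p = 0.0097), and Ebi3, a subunit of interleukins 27 and 35, by 2.02 ± 0.47. Against FF_TAC 2 rose and 2 fell (background 7.53% and 6.8%). Ebi3 rose by 2.24 ± 0.48, and Ctf1, the gp130 ligand cardiotrophin-1, fell by 0.83 on the log2 scale. Without FF_TAC 1, FF_TAC 4, KO_TAC 2, KO_TAC 3 or KO_TAC 4 Ctf1 was not called (adjusted p = 0.0541 to 0.112), and without the first 4 of these 0 genes of the list were called lower. Exons of Ebi3 and Ctf1 overlap those of Gm16712 and Ctf2, so their counts are uncertain.

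Of 24 genes known to respond to STAT3 and NF-kappaB, 19 rose and none fell in KO_TAC against KO_sham (background 14.3% rising), with a list median of 2.37 against 0.02. Ptx3, an acute-phase pentraxin, rose by 4.81 ± 1.25 (adjusted p = 0.0144). Icam1, an adhesion molecule for leukocytes, rose by 4.62 ± 1.21 (adjusted p = 0.015, with exons that overlap Gm47079), and Tnfaip3, a brake on NF-kappaB, by 3.86 ± 1.30 (adjusted p = 0.0408). Tnfaip3 was called without KO_TAC 1 and without the library labelled KO_sham 2, and not without any of the other 6 libraries (adjusted p = 0.0606 to 0.0999). Without KO_sham 3 or without KO_sham 4 the count was 11. Against FF_TAC 6 of the 24 rose (background 7.53%), led by the acute-phase serpin Serpina3n (4.18 ± 0.71), the protease inhibitor Timp1 (3.82 ± 0.66) and the serum amyloid Saa3 (2.91 ± 0.91). Saa3 was called without KO_TAC 1 or KO_TAC 4 and not without any of the other 6 libraries (adjusted p = 0.0544 to 0.159). Serpina3n and Saa3 belong to families of near-identical genes and are uncertain. Without FF_TAC 1, FF_TAC 4 or KO_TAC 3 that count was 3.

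Of 9 genes of cytokine maturation and release, 3 rose in KO_TAC against KO_sham (background 14.3%). Casp4, an inflammatory caspase, rose by 2.71 ± 0.70, and Rhbdf2, which carries the TNF-releasing protease ADAM17 to the cell surface, by 1.67 ± 0.42. Il18bp, the soluble blocker of interleukin-18, rose by 0.86 ± 0.28, with exons that overlap Numa1. Il18bp was called without KO_TAC 1 and not without any of the other 7 libraries (adjusted p = 0.0531 to 0.0999). Of 9 genes of AU-rich mRNA decay, which clears cytokine messages, Zc3h12a alone rose, by 2.64 ± 0.73 (adjusted p = 0.0185), a share of the list near the background of 14.3%. Zc3h12a was not called without KO_sham 1, KO_sham 3 or KO_sham 4 (adjusted p = 0.0506 to 0.0543), while 3 genes of the list, among 3169 in all, were called without the library labelled KO_sham 2. Neither list had a call against FF_TAC. With the haemoglobin term, 1 receptor gene and 1 related cytokine stayed called higher in KO_TAC against KO_sham, and none of the 24 response genes. Among haemoglobin-low libraries none of the list calls above remained in either comparison, with Il1rn at 2.61 ± 0.46 against FF_TAC.

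Marker genes of immune cells did not part the libraries as the cytokines did. In bulk tissue, fewer cells of a type and less RNA per cell cannot be told apart. The 10 macrophage and monocyte markers, all detected, summed to 170 to 314.5 CPM in the haemoglobin-low libraries and to 150.5 to 477 CPM in the other floxed-cohort libraries. By group they summed to 150.5 to 249 CPM in FF_sham, 170 to 197 CPM in FF_TAC, 235 to 477 CPM in KO_sham and 269 to 314.5 CPM in KO_TAC. The KO_TAC range thus lay inside that of KO_sham and above that of FF_TAC. Of the 10 markers, KO_TAC had 2 called lower against KO_sham (background 11.5%) and 3 called higher against FF_TAC (background 7.53%). The 8 neutrophil markers summed to 1.78 to 6.69 CPM against 2.62 to 7.99 CPM. Ly6g, a defining marker, was at 0 in all 7 haemoglobin-low libraries, and also throughout FF_sham, PBS_sham, PBS_TAC and AAV_TAC. Of 3 tested neutrophil markers, 1 was called higher in KO_TAC against FF_TAC (background 7.53%). The 8 lymphocyte markers summed to 1.37 to 20.5 CPM against 1.66 to 5.06 CPM, and the 5 endothelial markers to 540 to 951 CPM against 654 to 903 CPM. Of these 5 endothelial markers, KO_TAC had 3 called lower against KO_sham (background 11.5%). Against FF_TAC 3 were called lower and 1 higher (background 6.8% and 7.53%). The 6 fibroblast markers summed to 887.5 to 2119 CPM against 663 to 1012 CPM. By group they stood at 1530 to 2119 CPM in KO_TAC, above FF_TAC (781 to 897 CPM), KO_sham (742 to 1020 CPM) and FF_sham (663 to 844 CPM), so that they moved with Il11 and the other calls in both KO_TAC comparisons. Of these 6 markers 3 rose against KO_sham and 4 against FF_TAC (background 14.3% and 7.53%). The 5 atrial cardiomyocyte markers summed to 4513 to 17710 CPM in KO_TAC and to 156 to 497 CPM in FF_TAC (list median log2 fold change 5.12, with 1 of 5 called). They reached 3259 CPM in KO_sham and 5411 CPM in FF_sham, groups in which Il11 was at most 0.184 CPM. The 12 early response genes (Fos, Jun, Egr1 and others) moved with the cytokines, at 2001 to 4847 CPM against 157 to 223 CPM, and at 350 to 953 CPM in the AAV9 cohort. The part of these marker sums in the cytokine values was not tested.

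Over the 30 libraries, log2 CPM of Il1b, Il6 and Tnf had Pearson correlations of 0.967 to 0.977 with each other, and Csf1 had one of 0.962 with Csf2. Il33 had 0.311 to 0.488 with the other members. The libraries fall into 2 sets that the members share, so these are descriptions with no test. Of 13762 other genes, the one most like Il1b (0.979), Il6 (0.972) and Tnf (0.989) was Cxcl2, a chemokine for neutrophils. Csf1 was most like Cd40 (0.966), a receptor of the TNF family, and Csf2 most like Relb (0.969), an NF-kappaB subunit. Csf3 was most like Sele (0.961), the adhesion molecule E-selectin. Lif was most like Adamts4 (0.946), Il11 most like Anxa2 (0.95) and Il33 most like Tgfa (0.825).

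Il1b and Csf2 overlap a gene on the opposite strand, and the strand setting of the counting is not given in the sources used here. Il1bos, opposite Il1b, had at most 10 counts in a library, against up to 3226 for Il1b. Gm12223, opposite Csf2, had at most 3 counts, against up to 248 for Csf2. The library kit marks strand, but reads of each pair are uncertain on this ground.

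In the AAV9 cohort, Osm and Il33 were the only members at an unadjusted p under 0.05 in any comparison. Of the 10, 6 passed the count filter (Il1b, Lif, Osm, Il33, Tnf and Csf1), and edgeR called none of them in any of the 5 comparisons. Csf2 was at most 1 count per library and Csf3 likewise. Il6, which was not tested, was at 4, 4 and 5 counts in PBS_TAC and at 1, 2 and 4 counts in PBS_sham, and in CPM (0.230 to 0.264 against 0.0548 to 0.159) these groups did not overlap, as 8.11% of tested genes did not in that direction. Osm was at 1, 2, 1 and 1 counts in AAV_TAC (0.0499, 0.115, 0.0631 and 0.0480 CPM). It was at 16, 5, 11 and 9 counts in AAV_sham (0.806, 0.306, 0.643 and 0.545 CPM), and the groups did not overlap, as in 5.79% of 15745 genes in that direction. The log2 fold change was -2.98 ± 0.63 (adjusted p = 0.173), while 0.00635% of genes, 1 gene, was called. At an unadjusted p under 0.05 there were 1 member, Osm, and 1110 of all genes. DESeq2 called Osm at -3.09 ± 0.85 (adjusted p = 0.0423) among 117 genes in all, as did edgeR on these 2 groups alone (adjusted p = 0.0334). Counts of 1 or 2 set the precision of these values.

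Without the vector Osm did not part TAC from sham. It was at 0.117, 0.230 and 0.370 CPM in PBS_TAC and at 0.110, 0.719 and 0.518 CPM in PBS_sham (log2 fold change -0.88 ± 0.60, adjusted p = 0.411). For Osm, the TAC effect with the vector minus that with PBS was -2.09 ± 0.89 (adjusted p = 0.688), so a difference between vector and PBS in the response to TAC did not pass the test. Both edgeR and DESeq2 called 0 of 6 members there, with 0.00635% of genes called by edgeR, and 1 member and 1094 genes at an unadjusted p under 0.05. AAV_TAC also lay below PBS_TAC in all libraries for Osm (-1.74 ± 0.74, adjusted p = 1, with 0.0381% of genes called and 4.28% not overlapping in that direction). The nearest libraries, AAV_TAC 2 and PBS_TAC 1, held 2 Osm counts each (0.115 and 0.117 CPM). They were parted by the scaling to library size alone. Lif was higher in every AAV_TAC library (0.672 to 1.04 CPM) than in PBS_TAC (0.212 to 0.518 CPM), at 1.05 ± 0.50 (adjusted p = 1), as 4.19% of genes were in that direction. That comparison had 0 of 6 members called by both tools, 1 member at an unadjusted p under 0.05 and 502 such genes.

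**Figure D4:**
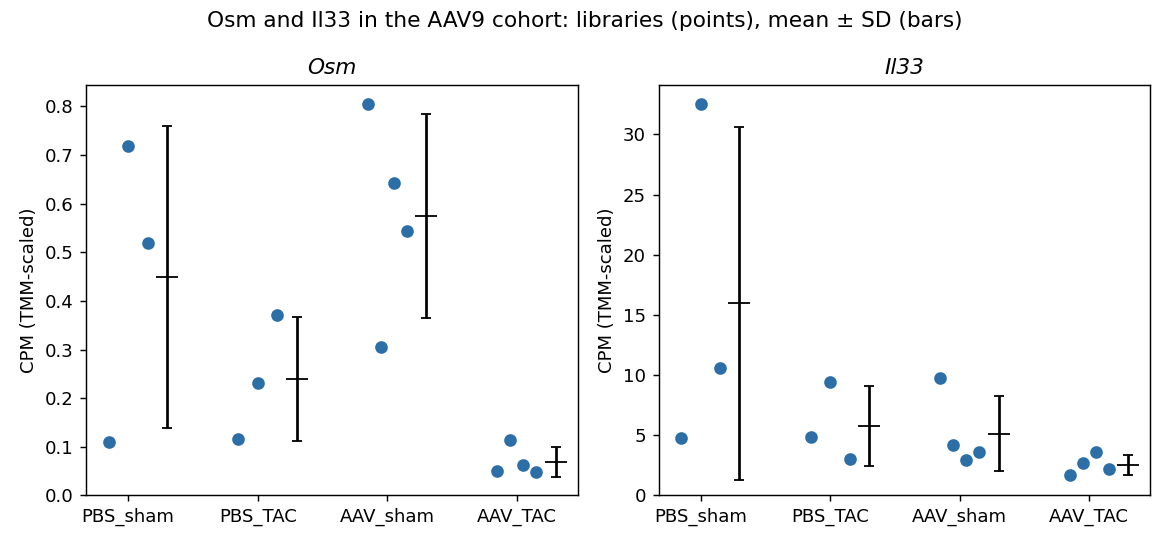
TMM-scaled CPM (vertical axes, from 0) of Osm on the left and Il33 on the right in the 4 groups of the AAV9 cohort; points are libraries and bars the mean ± SD (n = 3 for PBS groups, 4 for AAV groups). All 4 AAV_TAC points of Osm lie at or under 0.115 CPM, and for Il33 PBS_sham 2 stands at 32.5 CPM.

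Il33 was at 4.76, 32.5 and 10.6 CPM in PBS_sham and at 4.85, 9.44 and 3.01 CPM in PBS_TAC. The log2 fold change was -1.47 ± 0.62 (adjusted p = 0.242), with 0 of 6 members called by both tools, 0.0318% of genes called, and Il33 the 1 member among 2908 genes at an unadjusted p under 0.05. In AAV_sham it was at 9.72, 4.23, 2.92 and 3.63 CPM, at -1.63 ± 0.57 against PBS_sham (adjusted p = 0.175, with 0.0127% of genes called). Again both tools called 0 of 6 members, and Il33 was the 1 member among 3262 genes at an unadjusted p under 0.05. Without PBS_sham 1, the lowest of its group, Il33 was called in both comparisons, at -1.90 ± 0.56 (adjusted p = 0.0483) and -2.06 ± 0.52 (adjusted p = 0.0271). The calls over all 15745 genes then went from 5 to 1742 and from 2 to 2799. Markers of some other cells ranked the PBS_sham libraries as Il33 did. The 5 mesothelial markers summed to 12.0, 296 and 183 CPM in PBS_sham 1, 2 and 3 and to 7.37 to 35.9 CPM in PBS_TAC. The 8 lymphocyte markers reached 23.6 CPM in PBS_sham 2, against at most 4.09 CPM in PBS_TAC. Adipocyte markers summed to 10.6, 139 and 65.4 CPM in PBS_sham 1, 2 and 3, and mast cell markers to 6.84, 17.9 and 10.7 CPM. The 5 mural cell markers ranked otherwise, at 902, 750 and 2323 CPM. The ventricular cardiomyocyte markers were at their lowest in PBS_sham 3. The part of these marker sums in the Il33 values was not tested. AAV_TAC stood lowest, at 1.70, 2.71, 3.59 and 2.16 CPM. Its log2 fold change was -1.03 ± 0.57 against AAV_sham (adjusted p = 0.792) and -1.19 ± 0.61 against PBS_TAC (adjusted p = 1). Il1b, Tnf, Lif and Csf1 overlapped between TAC and sham in both arms, and Csf1 had log2 fold changes of 0.05 ± 0.24 with PBS and 0.15 ± 0.205 with the vector. Member medians for TAC were -0.72 with PBS and -0.61 with the vector, against -0.02 and 0.00 over all genes.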

How the data were processed

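Hearts were processed to poly(A) RNA libraries with a directional kit, from 200 ng of RNA with an RIN above 7 and 12 PCR cycles, and read as 100 bp pairs, per the labels' protocols. The authors deposited 1 table of raw counts per gene. HISAT2 2.1.0, featureCounts, Subread 1.5.1 and GRCm38 are named, per the submitters' processing notes, with the annotation release and strand setting not given in the sources used here. Symbols came from GENCODE M21, which matched 55141 of 55487 identifiers, and the rest held 0.0192% of counts. The KO_TAC titles read as sham, and the genotype and treatment labels with the column names gave their group.

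Each cohort was fitted with edgeR 4.0.16 (R 4.3.3, limma 3.58.1): TMM scaling, filterByExpr, 1 mean per group and the quasi-likelihood F test. P-values were two-sided and adjusted by Benjamini-Hochberg over all 15596 (floxed) or 15745 (AAV9) genes, with a gene called under 0.05. Plus-minus values on log2 fold changes are SE. Ratios to counts of 1 to 3 carry an exact 95% interval that covers counting error only. The scripts were tested on simulated data. Totals were 14839758 to 22070373 counts per library. No pair of libraries of a group agreed within sampling noise (chi-square per degree of freedom 6.29 to 234 over 42 pairs).

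The text names all 10 members, up to 3 called genes of largest log2 fold change per companion list and comparison, the genes most correlated with members that reached a mean of 1 CPM, and Cpt1a and haemoglobin as checks. A related cytokine that this rule selects is not reported here. Members and lists were chosen with earlier results of these data known. Alternatives were DESeq2 1.42.0, RLE size factors, other filters, a replicate block, fits of the groups compared alone, a haemoglobin term, fits within the haemoglobin classes and leaving out each library.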

Additional observations from a re-analysis of the deposited data

Results flagged for a closer look

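Of 62 groups of 4 libraries checked, 11 had a library far from the others of its group by Dixon's test, which chance gives in about 1 in 20 groups. The library labelled KO_sham 2 accounts for 7: it was highest in its group for Il1b (61.5 CPM, the next 1.06), Il6 (41.0 CPM, the next 0.104), Tnf (39.8 CPM, the next 1.09), Il33 (19.7 CPM, the next 6.21), Osm (0.607 CPM, the next 0.157), Csf3 (0.486 CPM, the next 0.0460) and Cpt1a (46.2 CPM, the next 23.6). KO_TAC 1 was lowest for Tnf, at 62.7 CPM against 112 CPM in the nearest library. In FF_sham, library 2 was highest for Il33 (10.45 CPM, the next 3.41) and library 4 for Csf1 (100.6 CPM, the next 53.9). In AAV_TAC, library 2 was highest for Il1b (1.90 CPM, the next 0.946).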

How the results depend on the processing

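Members at an unadjusted p under 0.05, named list genes and list counts made 58 results. Of their 907 values under the alternatives, 755 kept direction and side of the threshold or stayed within 1.5 times, 88 kept direction and lost the call, 13 gained it, 47 counts moved and 4 reversed. These reversals were in FF_TAC against FF_sham with haemoglobin-high libraries only: Lif -0.60, Tnf -0.05, Csf1 -0.043 and Csf3 -1.65. Members above that p are not in this count, and several changed sign: among haemoglobin-low libraries Tnf (-0.42), Csf2 (-0.47) and Csf1 (-0.02) in KO_TAC against FF_TAC and Il33 (-0.58) in KO_TAC against KO_sham. In KO_TAC against KO_sham, members called numbered 5 with all libraries, 0 with the haemoglobin term, 0 among haemoglobin-low libraries and 5 to 9 when 1 library was left out. In KO_TAC against FF_TAC they numbered 1 with all libraries, 0 with a mean of at least 1 CPM (which removes Il11), 0 with only these groups (Il11 adjusted p = 0.103), 0 with the haemoglobin term, 0 among haemoglobin-low libraries and 1 to 2 when 1 library was left out. DESeq2 moved the count from 0 to 4 in FF_TAC against FF_sham, and from 0 to 1 in KO_sham against FF_sham, in the floxed interaction and in AAV_TAC against AAV_sham. The last was also 1 with only these groups. When 1 library was left out, PBS_TAC against PBS_sham and AAV_sham against PBS_sham each gave 0 to 1. The cause was not tested where none is named.

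Same-numbered libraries correlated at -0.408 to 0.454 in their deviations, and no comparison had every pair above 0.1. Some pairs matched their own number best, as numbers 1 and 2 did in KO_TAC against FF_TAC (0.454 and 0.244). The main fits treat the libraries as unpaired, and whether same-numbered libraries share a batch was not tested. With a replicate block, members called in KO_TAC against KO_sham went from 5 to 7, with Il1b at 5.60 (adjusted p = 0.0136) and Tnf at 5.24 (adjusted p = 0.0226), and no other comparison's member count changed. Depth limits Osm, Csf2, Csf3, Il6 and Il11 in the sham groups, where a library held 0 to 16 counts, apart from the library labelled KO_sham 2 with 675 counts of Il6.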
